A study of Mus musculus with 20 samples.

Results

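The 10 genes described here encode the epidermal growth factor (EGF) family ligands Areg, Ereg, Egf, Hbegf, Tgfa and Btc, the ErbB receptors Egfr, Erbb2 and Erbb3, and Errfi1, an intracellular inhibitor of EGFR. They were chosen by name, and all 10 were found among the 54838 gene rows of the tables. RNA levels are in FPKM, fragment counts scaled to transcript length and to sequencing depth, so levels can be set side by side between genes. A gene was tested where 2 or more libraries of a fit held 1 FPKM, which 9 of the 10 genes met in both tissue and organoids. Egf was below that in all 20 libraries, at 0.13 to 0.43 FPKM in tissue and 0.06 to 0.11 in organoids. Ereg passed this filter only through libraries labelled knockout in tissue, and only through one organoid group, so those groups had to be higher than the others for Ereg to be tested at all.

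The libraries are total RNA from small intestinal epithelium and intestinal organoids of C57BL/6 mice. The tissue set holds cells of mice with Lgr5-EGFP-IRES-CreERT2, in which EGFP marks Lgr5-expressing crypt stem cells, sorted through a high or a low EGFP gate. Control mice (Mettl3fl/fl, labelled untreated, although the protocol describes tamoxifen for them too) gave 2 libraries per gate. Knockout mice (labelled Mettl3-/-, given tamoxifen at 20 mg/ml for 4 days, with Villin-CreERT2 recombination in intestinal epithelium) gave 1 library per gate at day 3, 2 per gate at day 4, and 2 at day 6, whose labels name no gate while the column header of the first names the low one. The organoids came from such mice and grew in Matrigel in a medium holding EGF (50 ng/mL), R-spondin1 (500 ng/mL) and Noggin (100 ng/mL). Their 4 groups of 2 libraries are controls given ethanol for 2 days, knockouts given 4-hydroxytamoxifen (4-OHT) for 2 days, knockouts that also express Ascl2, Klf9 and Fosb from retroviruses (AKF), and knockouts that express Purb as well (AKFP), the last 2 groups also under 4-OHT for 2 days. The titles of control and knockout organoids carry the tag m3-flag and those of AKF and AKFP do not; the labels do not explain the tag, which may set the virus groups apart.

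EGF family ligands are made as membrane-bound precursors that metalloproteases such as ADAM17 release, and they bind EGFR or ErbB4. Bound receptors pair up, ErbB2 serving as the partner without a known ligand of its own and ErbB3 as a kinase-impaired partner that recruits PI3-kinase, and the signal runs through RAS, RAF, MEK and ERK to immediate early genes and to feedback brakes such as the dual-specificity phosphatases, Sprouty proteins and ERRFI1. In the intestinal crypt this pathway sustains proliferation of stem and progenitor cells, which is why EGF is a standard component of organoid medium.

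The Ereg, Areg and Btc genes lie near each other. On chromosome 5 of mm10, Ereg spans 91074622 to 91093646 and Areg 91139599 to 91148432 on the plus strand, Btc spans 91357261 to 91402994 on the minus strand, and Epgn, an EGF family ligand outside the 10, lies at 91027464 to 91035215. Others lie elsewhere: Egf on chromosome 3, Tgfa on chromosome 6, Egfr and Erbb2 on chromosome 11, Erbb3 on chromosome 10 and Errfi1 on chromosome 4. RefSeq promoter windows (GRCm38.p6, 250 bases before to 50 after the annotated start) were at hand for 7 of the 10 genes. The 120 bases just before the start are shown for the 4 of them whose RNA rose in knockout organoids, written 5′ to 3′ on the gene's strand, with the cAMP response element TGACGTCA in capitals.
Areg, chr5:91139479-91139598, plus strand: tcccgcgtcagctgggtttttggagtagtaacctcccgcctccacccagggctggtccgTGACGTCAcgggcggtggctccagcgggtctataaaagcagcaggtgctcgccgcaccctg
Btc, chr5:91402995-91403114, minus strand: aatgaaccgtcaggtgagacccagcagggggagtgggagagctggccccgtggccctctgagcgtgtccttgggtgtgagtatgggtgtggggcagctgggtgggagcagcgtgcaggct
Egfr, chr11:16752083-16752202, plus strand: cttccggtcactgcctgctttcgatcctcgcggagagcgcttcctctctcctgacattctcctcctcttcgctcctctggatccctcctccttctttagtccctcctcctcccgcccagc
Errfi1, chr4:150854950-150855069, plus strand, the second of its 2 windows: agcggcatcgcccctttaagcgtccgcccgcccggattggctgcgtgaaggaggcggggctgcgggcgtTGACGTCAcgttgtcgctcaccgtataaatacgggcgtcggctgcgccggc
The Areg window holds TGACGTCA starting at position -61 and the TATA box TATAAA at -31, counted from the annotated start, and this Errfi1 window holds them at -51 and -28. Searched on both strands of the 300-base windows, neither motif was found in those of Btc and Egfr or in the first Errfi1 window. The AP-1 motif TGANTCA was in none of the members' windows. Over all 32851 windows of the table, 1.79% hold TGACGTCA, 13.6% TATAAA and 7.81% TGANTCA. These matches describe the letters of the windows only.

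Mettl3, the targeted gene, measured 3.42 to 4.86 FPKM in control tissue and 2.75 to 4.99 in the tissue libraries labelled knockout, and 3.23 to 3.56 in control against 3.33 to 4.22 in the other organoids. One number for the whole gene does not show whether an exon was removed, so "knockout" below means the label. The first day 6 library and the first day 4 high-gate library had the largest FPKM sums over all genes, 763177 and 607817, against 456654 to 534593 in the other tissue libraries. Epithelial Epcam was present throughout. The summed level of 4 crypt stem cell markers was 2945 to 3153 FPKM in the control high gate, 508 to 567 in the control low gate and 84.9 to 404 at day 6. All 4 were lower at day 6 than in the control high gate, while 3 of 4 enterocyte, 3 of 3 goblet, 3 of 3 enteroendocrine and 2 of 4 Paneth markers were higher, the 4 Paneth markers summing to 8846 to 12573 FPKM in the control high gate and 19676 to 50809 at day 6. Against the control low gate none of the stem, enterocyte, goblet or enteroendocrine markers passed the test at day 6 (limma, adjusted p at 0.05) and 1 Paneth marker did; at an unadjusted p under 0.05 the counts were 2 stem, 0 enterocyte, 1 goblet, 0 enteroendocrine and 3 Paneth markers. Immune markers summed to at most 5.27 FPKM in tissue and 7.97 in organoids, with the leukocyte gene Ptprc at 0 in every organoid library, and stromal and endothelial markers to at most 3.40 and 0.32. In bulk RNA, fewer cells of a type and less RNA per cell cannot be told apart, and the part of these marker shifts in the results was not tested.

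At day 6 most of the members that passed the test were ligands. Against the control high gate, Areg, Ereg, Tgfa and Btc rose and Hbegf and Erbb2 fell; against the control low gate, Areg, Ereg and Btc rose and Hbegf and Erbb2 fell. That is 6 and 5 of the 9 tested genes, with Ereg, which had to be higher in knockouts to be tested, in both counts; in the same comparisons 21.9% and 11.5% of all tested genes passed. Differences below are on the log2(FPKM + 1) scale with their standard error (SE), which understates the change of genes at a few FPKM or less, and adjusted p-values come from limma with Benjamini-Hochberg adjustment over all genes tested.

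Areg encodes amphiregulin, a low-affinity EGFR ligand. Its level was 14.9 and 12.5 FPKM in the 2 control high-gate libraries and 19.5 and 21 in the control low gate. In the knockout it was 17.2 (high) and 23.6 (low) at day 3, 20.0 and 16.1 in the day 4 high gate, 31.8 and 46.8 in the day 4 low gate, and 193.4 and 103.6 at day 6. The groups rank from control high gate to day 6, with day 4 high overlapping the control low gate, and both day 6 libraries lie above every other tissue library. The day 6 mean was 10.8-fold the control high-gate mean (difference 3.28 ± 0.31, adjusted p = 0.000622) and 7.33-fold the control low-gate mean (2.75 ± 0.31, adjusted p = 0.00222). It was also higher than in the day 4 high gate (2.91, adjusted p = 0.00698), but the difference from the day 4 low gate did not pass (1.85, adjusted p = 0.108). Leaving out any 1 library kept the first 2 differences called, between 2.84 and 3.73 and between 2.30 and 3.19.

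Ereg encodes epiregulin, a ligand of EGFR and ErbB4. It measured 0.22 and 0.17 FPKM in the control high gate and 0.41 and 0.52 in the control low gate. It measured 0.61 and 0.93 at day 3 (high, low), 0.28 and 1.01 in the day 4 high gate, 1.24 and 2.84 in the day 4 low gate, and 5.49 and 5.24 at day 6. No library outside day 6 exceeded 2.84 FPKM, and day 4 low lay above both control gates. The day 6 mean was 27.6-fold and 11.5-fold the control high-gate and low-gate means (2.41 ± 0.30 and 2.12). Ereg was in the fit only because knockout libraries reached 1 FPKM. These 2 differences are therefore a description, and their p-values are not given. A gene model on the opposite strand, Gm19610, overlaps Ereg and reached 2.18 FPKM in the first day 6 library; whether counting used strand is not given in the sources used here.

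Btc encodes betacellulin, a further ligand of EGFR and ErbB4. It ranged from 0.97 to 2.30 FPKM in the 10 tissue libraries before day 6 and was 5.59 and 5.04 at day 6. The 2 day 6 libraries stand clear of the rest, which overlap each other across gates and days. The day 6 mean was 3.27-fold the control high-gate mean (1.26 ± 0.22, adjusted p = 0.00647) and 4.93-fold the control low-gate mean (1.60, adjusted p = 0.00411). With every library scaled to the same FPKM sum the first of these no longer passed (0.98, adjusted p = 0.0681). That scaling moved the median of all genes from -0.16 to -0.46 in this comparison.

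Tgfa, which encodes transforming growth factor alpha, differed between the control gates. It was 0.60 and 0.50 FPKM in the high gate and 2.94 and 3.34 in the low gate, and every knockout library held 2.02 to 4.69 FPKM except the day 3 low-gate library at 0.57. The control high-gate libraries were below the control low-gate ones (-1.42 ± 0.26, adjusted p = 0.0467, the one member of 9 called, beside 1.2% of all genes), a call that was lost without any 1 of the 4 control libraries (adjusted p up to 0.362) or either day 4 low-gate library (adjusted p up to 0.0622), and also with no filter (adjusted p = 0.129) or equal FPKM sums (adjusted p = 0.189). At day 6 Tgfa was 7.19-fold the control high-gate mean (1.66 ± 0.26, adjusted p = 0.00438) but near the control low gate (0.24). At day 3 the gates stood the other way round, at 3.35 in the high-gate library against 0.57 in the low-gate one, with 1 library each and no test.

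Hbegf, the gene of heparin-binding EGF-like growth factor on chromosome 18, moved the other way. It was the most abundant ligand RNA in control tissue, at 50.1 and 52.2 FPKM in the high gate and 53.9 and 45.5 in the low gate. It measured 48.6 and 31.7 at day 3 (high, low), 18.5 and 9.22 in the day 4 high gate, 15.5 and 6.84 in the day 4 low gate, and 19.8 and 13.6 at day 6. All 6 libraries of day 4 and day 6 were below all 4 controls and below both day 3 libraries. At day 6 the mean was 3.07-fold below the control high-gate mean (-1.58 ± 0.40, adjusted p = 0.0244) and 2.98-fold below the control low-gate mean (-1.54, adjusted p = 0.0411). Both calls were lost with no filter on low genes (adjusted p = 0.0737 and 0.115), the second also with median-of-ratios scaling (adjusted p = 0.0624), and each without any 1 library of the groups it compares (adjusted p from 0.0661 to 0.129 and from 0.104 to 0.19). The second was also lost without either control high-gate library (adjusted p = 0.0696 and 0.0697). The day 4 differences, -1.88 ± 0.40 in the high gate and -2.15 ± 0.40 in the low gate, missed the threshold (adjusted p = 0.0676 and 0.0664). They were larger in size than the day 6 ones, but fewer genes passed at day 4 in all, 1.05% and 0.473%.

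At day 4 no member passed in either gate. At an unadjusted p under 0.05 there were 4 in the high gate (Hbegf, Tgfa, Erbb2 and Erbb3), among 2182 genes in all, and 4 in the low gate (Hbegf, Ereg, Erbb2 and Areg), among 1768. Areg differed by 0.37 in the high gate (adjusted p = 0.568) and by 0.90 ± 0.31 in the low gate (adjusted p = 0.253). Ereg differed by 0.42 and 1.0 ± 0.30. It was in the fit only through knockout libraries, so its place in the low-gate list was favoured by the filter. The test of a different knockout difference between gates at day 4 called 0 members, beside 0.0155% of all genes; at an unadjusted p under 0.05 it gave Tgfa (1.05 ± 0.37, adjusted p = 0.963), among 223 genes. Within the knockout at day 4 the high and low gates gave 0 called members and 0% of genes, with Areg (-1.06) and Ereg (-0.87) at an unadjusted p under 0.05, among 2417 genes. Without the second day 4 high-gate library, Erbb3 was called in the high gate (-2.03, adjusted p = 0.0331); without either high-gate library of day 4, Hbegf was called in the low gate.

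Against the day 4 high gate, 4 of 9 members passed at day 6, all of them higher, beside 3.21% of all genes. They were Areg, Ereg (1.99), Btc (1.35, limma adjusted p = 0.0265) and Errfi1. Ereg was in the fit only through knockout libraries, both day 6 ones among them. The filter therefore favoured its place in this count. That count fell to 1 with equal FPKM sums or with genes below 1 FPKM kept in the fit, and to 0 when only these 4 libraries were fitted. Against the day 4 low gate no member passed and 0.0543% of all genes did; at an unadjusted p under 0.05 there were 1069 genes. Areg (1.85), Btc (1.26, adjusted p = 0.115) and Ereg (1.12, adjusted p = 0.253) were higher at day 6 in these values.

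Of the 3 receptors, Erbb2 was the one called at day 6. Erbb2, the shared partner receptor, measured 35.8 and 32.6 FPKM in the control high gate and 43.8 and 34.9 in the control low gate. It was 25.8 and 25.5 at day 3 (high, low), 20.4 and 19.7 in the day 4 high gate, 27 and 22.6 in the day 4 low gate, and 18.1 and 21.7 at day 6. All 8 knockout libraries were below all 4 controls. The day 6 mean was 1.72-fold below the control high-gate mean (-0.76 ± 0.20, adjusted p = 0.0269) and 1.98-fold below the control low-gate mean (-0.95 ± 0.20, adjusted p = 0.0175); the second was lost with equal FPKM sums (adjusted p = 0.0638). Mien1, on the opposite strand, overlaps Erbb2 and was at 32.7 to 73.1 FPKM.

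Erbb3, the kinase-impaired partner, was the most abundant of the 3 receptors in control tissue. It measured 60.3 and 63.4 FPKM in the high gate and 50.3 and 57.6 in the low gate. In the knockout it was 36.7 and 38.0 at day 3 and 14.4 and 34.4 in the day 4 high gate. It was 38.2 and 36.9 in the day 4 low gate and 21.8 and 39.2 at day 6. Every knockout library was below every control, with the first day 4 high-gate library and the first day 6 library, the 2 with the largest FPKM sums, lowest. No comparison called Erbb3 (at day 6 -1.05 ± 0.38, adjusted p = 0.0812, against the high gate and -0.86, adjusted p = 0.194, against the low gate). Egfr, the ligand-binding receptor itself, ranged from 2.36 to 5.0 FPKM in tissue, with both day 6 libraries (4.65 and 5.0) above all others. It was not called in any comparison there (at day 6 0.09, adjusted p = 0.795, and 0.48, adjusted p = 0.224).

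**Figure D1:**
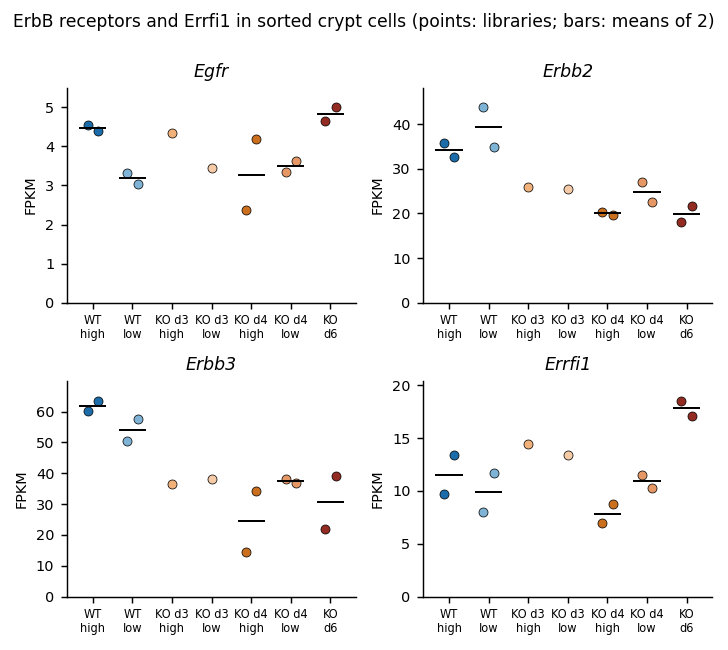
RNA level in FPKM (y axis, linear from 0) of Egfr, Erbb2, Erbb3 and Errfi1 in each tissue library (points) by group (x axis), with a bar at the mean of groups of 2. Erbb2 and Erbb3 are below the 4 control libraries in all 8 knockout libraries. Egfr ranges from 2.36 to 5.0 FPKM, with both day 6 libraries highest.

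Errfi1, whose product binds and blocks the EGFR kinase, was 9.68 and 13.4 FPKM in the control high gate and 8.0 and 11.7 in the control low gate. It was 14.4 and 13.4 at day 3, 6.92 and 8.74 in the day 4 high gate, 11.5 and 10.3 in the day 4 low gate and 18.5 and 17.1 at day 6. The day 4 high gate had the lowest mean, though the control low-gate library at 8.0 lay below its second library at 8.74. Both day 6 libraries were highest. The difference between day 6 and the day 4 high gate was the one called in tissue (1.1 ± 0.24, limma adjusted p = 0.0484, and 0.0563 with a pseudocount of 0.1). Against the control gates the day 6 differences were 0.60 (adjusted p = 0.105) and 0.81 (adjusted p = 0.0641).

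Several day 6 calls rested on single libraries. Without the first day 6 library, which had the largest FPKM sum and 27288 FPKM of the Paneth gene Lyz1 against 11343 in the second, Areg, Ereg, Tgfa and Btc remained called against the control high gate while Hbegf (adjusted p = 0.0661) and Erbb2 (adjusted p = 0.156) did not. Without either control high-gate library 3 members (Areg, Ereg and Tgfa) were called. Against the control low gate, leaving out that day 6 library or either control low-gate library left Areg, Ereg and Btc. Leaving out a library left a group with 1, which was assumed to vary like the other groups. Ereg was in these fits only through knockout libraries, so its staying called was favoured by the filter and is no sign of stability.

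Hbegf was the leading ligand RNA in control tissue and at day 3, and Areg in every day 4 and day 6 library. As a share of the summed FPKM of the 6 ligands, Hbegf made up 74.1% and 77.5% in the control high gate and 69.0% and 63.3% in the control low gate. Its share was 67.2% and 53.6% at day 3, 44.1% and 28.2% in the day 4 high gate, 28.6% and 10.9% in the day 4 low gate, and 8.67% and 10.2% at day 6. Areg took 22.0% and 18.6% in the control high gate and 84.9% and 78.2% at day 6. At day 4 it took 47.6% and 49.5% in the high gate and 58.7% and 74.7% in the low gate. The sum of the 6 ligands was 67.6 and 67.3 FPKM in the control high gate and 228 and 133 at day 6. The ratio of Areg to Hbegf was 0.30 and 0.24 in the control high gate and 9.79 and 7.64 at day 6. These shares describe the same values as above and were given no test.

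**Figure D2:**
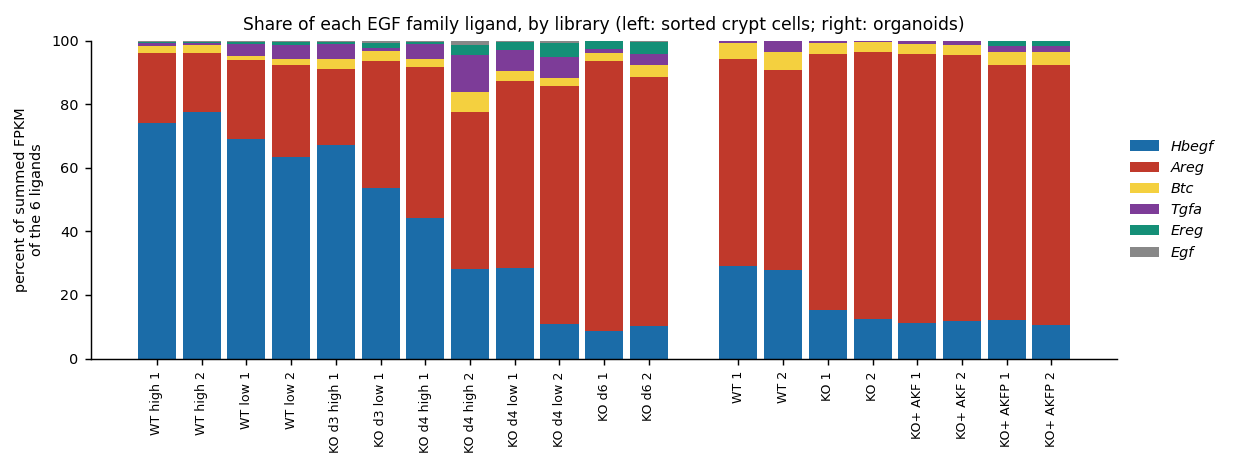
Share of the summed FPKM of 6 EGF family ligands (y axis, percent) taken by each ligand in each of the 20 libraries (x axis). Hbegf takes 63.3% to 77.5% in the 4 control tissue libraries and 8.67% and 10.2% at day 6. Areg leads in every day 4, day 6 and organoid library.

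Other genes of the pathway were grouped by role. Their day 6 counts are to be read beside the 21.9% of all tested genes that passed against the control high gate. The day 6 labels name no gate, so gate and knockout cannot be told apart in differences from that gate. None of the 6 other ErbB ligand and receptor genes reached the filter: Erbb4 was at 0 in all tissue libraries and at most 0.01 FPKM in organoids, Epgn at most 0.23 and Nrg4 at most 0.93. Of 5 ligand-shedding genes, 2 rose at day 6 against the control high gate (median of the list 0.08, against -0.16 for all genes), the rhomboid protease Rhbdl2 (1.31, adjusted p = 0.00727) and the inactive rhomboid Rhbdf2 (0.86, adjusted p = 0.0162), which escorts ADAM17. Of 23 relay genes 2 rose and 2 fell, among them the adaptor Gab1 (-1.41, adjusted p = 0.00694), the PI3-kinase regulatory subunit Pik3r1 (-2.07, adjusted p = 0.0161) and Hras (1.28, adjusted p = 0.0178); their median was -0.21.

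The feedback brakes and ERK-induced genes went in both directions. Of 17 brakes, 2 rose and 1 fell at day 6 against the control high gate, where 21.9% of all tested genes passed. The ERK phosphatase gene Dusp6 went from 2.27 and 2.38 FPKM to 25.9 and 20.9 (2.87 ± 0.38, adjusted p = 0.0023), Spry4 rose by 1.18 (adjusted p = 0.00306) and Lrig1, a brake on ErbB receptors that also marks crypt stem cells, fell by 1.26 (adjusted p = 0.0461). Lrig1 was 25.4 and 23.5 FPKM in the control low gate, against 50.9 and 50.5 in the high gate. At day 6 it was 14.2 and 29.6. As the day 6 labels name no gate, gate and knockout cannot be told apart there. The median of the brakes was 0.10. Of 10 ERK-induced genes, 3 rose and 3 fell: the ETS factor Etv4 rose by 2.40 (adjusted p = 0.000757), and the immediate early genes Fos (-2.11, adjusted p = 0.00237) and Egr1 (-1.77, adjusted p = 0.00479) fell, with a list median of -0.02. Against the control low gate, 4 brakes rose and none fell (Dusp6 2.41, adjusted p = 0.00647; Dusp4 1.45, adjusted p = 0.0368), and Etv4 (2.94) and Phlda1 (2.18) rose while Fos fell by 1.91. The medians there were -0.02 for brakes and 0.30 for ERK-induced genes, against -0.08 for all genes, of which 11.5% passed. Etv4 was also called at day 4 in both gates (2.42, adjusted p = 0.00515, and 1.93, adjusted p = 0.0269), as was the related Etv5 in the high gate (1.71, adjusted p = 0.0465).

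In organoids the knockout raised Areg again, while Hbegf did not fall. Against controls, Areg, Btc, Egfr and Errfi1 rose and Erbb2 fell, 5 of 9 members; 28.2% of all tested genes passed. Areg was 109 and 105 FPKM in controls and 318 and 362 in knockouts. Both knockout libraries were far above both controls, at 3.19-fold in the mean (1.66 ± 0.10, adjusted p = 0.000373). With any 1 library left out the difference lay between 1.57 and 1.75 and was called.

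Btc was 8.58 and 9.27 FPKM in control organoids and 13 and 14.5 in knockouts, and Egfr 3.61 and 3.72 against 5.23 and 5.46. The means differed 1.54-fold (0.57 ± 0.08, adjusted p = 0.00427) and 1.46-fold (0.44 ± 0.08, adjusted p = 0.00849). Errfi1 rose from 36.6 and 41.8 to 47.8 and 50.9 FPKM (1.26-fold; 0.33 ± 0.08, adjusted p = 0.0233), and Erbb2 fell from 33.8 and 34.3 to 28.5 and 27 (1.23-fold; -0.28 ± 0.07, adjusted p = 0.03). The Errfi1 call was lost with equal FPKM sums (adjusted p = 0.157). Without the second knockout library only Areg and Btc remained called, and without the first knockout or the first control library Areg, Btc and Egfr.

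Hbegf was 48.6 and 46.1 FPKM in control and 59.7 and 53.2 in knockout organoids, a difference of 0.25 ± 0.08 that did not pass (adjusted p = 0.0526). Tgfa spread widely within both groups, at 0.96 and 5.98 in controls and 3.0 and 1.26 in knockouts (-0.30 ± 0.55). Erbb3 was 37.4 and 40.7 against 33.4 and 38.4 (adjusted p = 0.441). Ereg was listed at 0 and 0.01 FPKM in controls and at 0.31 and 0.09 in knockouts, all close to nothing. The same comparison raised 3 of 4 Paneth, 3 of 3 goblet and 2 of 3 enteroendocrine markers and lowered 3 of 4 stem and 2 of 4 enterocyte markers. The 1 tested immune marker, the lysosomal gene Cd68, was also higher (1.16, adjusted p = 0.00138), and the 6 immune markers summed to 2.1 to 2.77 FPKM in controls and 6.07 to 7.97 in knockouts. The part of these markers in the members' differences was not tested.

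**Figure D3:**
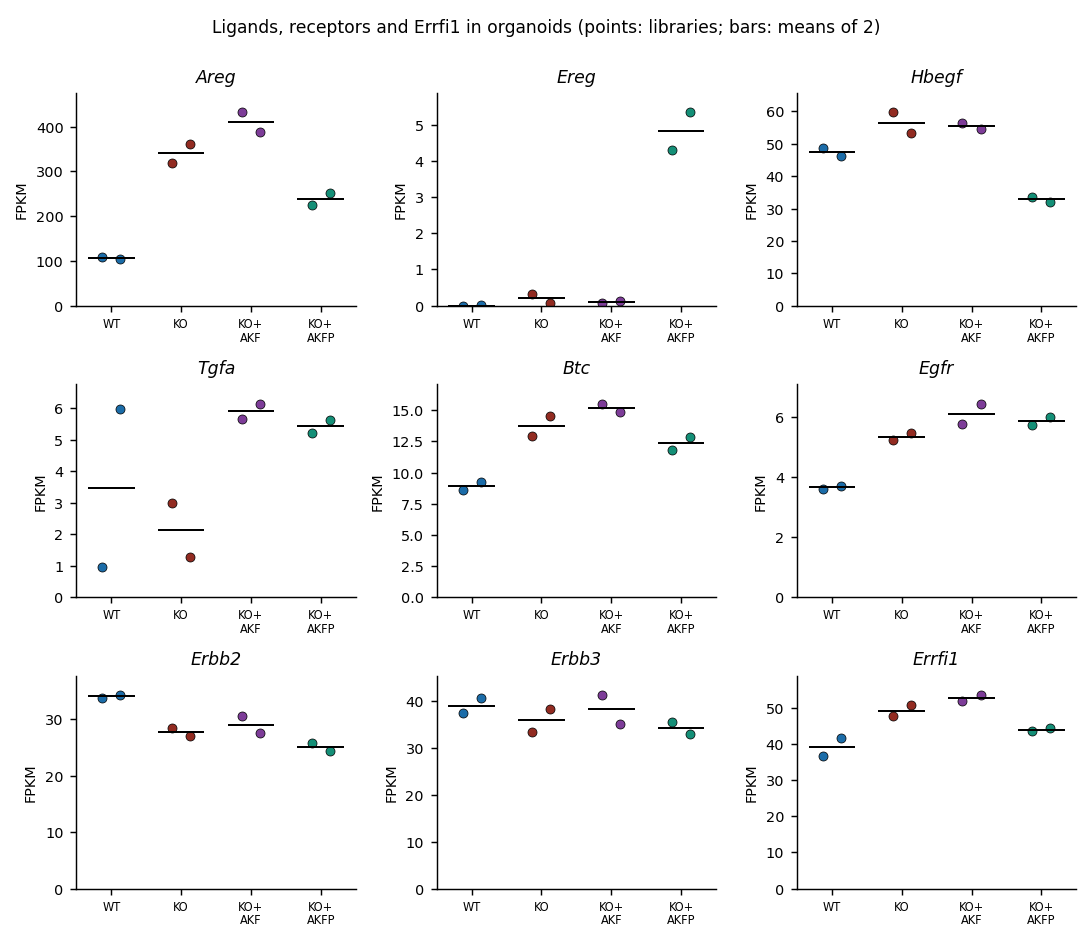
RNA level in FPKM (y axis, linear from 0) of the 9 tested genes in each organoid library (points) by group (x axis), with a bar at the mean of 2 libraries. Areg is above 200 FPKM in every knockout, AKF and AKFP library against 105 and 109 in controls, and Ereg is above 4 FPKM in the AKFP libraries alone.

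Expression of Ascl2, Klf9 and Fosb in knockout organoids came with no called difference in any member. Areg was 432 and 389 FPKM in AKF, Btc 15.5 and 14.9, Egfr 5.75 and 6.44, Errfi1 52.1 and 53.7 and Hbegf 56.5 and 54.6. Between AKF and knockout organoids 0 members and 0.0474% of all genes passed; at an unadjusted p under 0.05 there were 582 genes, Areg among them (0.27, adjusted p = 1). Set against the same controls as the knockout, AKF called Areg (1.93, adjusted p = 0.000159), Btc (0.71, adjusted p = 0.00165), Egfr (0.60, adjusted p = 0.00246) and Errfi1 (0.43, adjusted p = 0.00845), beside 30.3% of all genes; these 2 comparisons share the control libraries.

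In organoids that also express Purb, Ereg RNA was present at a few FPKM, and Areg and Hbegf were lower than in the knockout. Ereg was 4.29 and 5.34 FPKM in AKFP against 0.07 and 0.14 in AKF and 0.31 and 0.09 in knockouts. It was near 5 FPKM in 1 group and below 0.4 in the other 3, so it entered the fit only through AKFP and had to differ; its values are a description, with no test, and no fold is given against controls, 1 of whose libraries is listed at 0. Of the other 8 tested members, 2 passed between AKFP and knockout organoids, Areg and Hbegf, a share close to the 26.4% of all genes that passed.

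Areg was 225 and 252 FPKM in AKFP, below knockout and AKF and above controls. It differed by -0.51 ± 0.10 from knockouts (adjusted p = 0.0144), by -0.78 from AKF (adjusted p = 0.00372) and by 1.15 from controls (adjusted p = 0.000322). Without the second knockout library the first of these was not called. Hbegf was 33.7 and 32.1 FPKM, the lowest of the organoid groups, and differed by -0.76 ± 0.08 from knockouts (adjusted p = 0.00162), by -0.74 from AKF (adjusted p = 0.00176) and by -0.51 from controls (adjusted p = 0.00245). Without the first AKFP library, where Ereg no longer reached the filter, Hbegf was the one member called between AKFP and knockout.

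Tgfa was 5.22 and 5.64 FPKM in AKFP, above both knockout libraries (3.0 and 1.26), but the difference of 1.09 ± 0.55 did not pass (adjusted p = 0.173). Btc was 11.8 and 12.9 FPKM and Errfi1 43.6 and 44.4 in AKFP, both between knockout and control. Against AKF they differed by -0.28 (limma, adjusted p = 0.0509) and -0.26 (adjusted p = 0.0526). Against AKF, Areg and Hbegf were the 2 members called besides Ereg, where 25.6% of all genes passed. Egfr was 5.74 and 5.99, Erbb2 25.7 and 24.4 and Erbb3 35.6 and 33.1, and none of the 3 was called against knockouts. Against controls, where 43.4% of all genes passed, Egfr was higher (0.56, limma adjusted p = 0.00208) and Erbb2 lower (-0.43, adjusted p = 0.00445). Btc was 1.38-fold the control mean and was called under another pseudocount, filter, scaling, fit or block (adjusted p from 0.007 to 0.0172). Errfi1 was not called under any of these (adjusted p from 0.0812 to 0.329). All 4 Paneth markers rose from knockout to AKFP, summing to 1978 to 2124 and then 4272 to 4313 FPKM, and all 3 enteroendocrine markers fell, which was not tested as a part of the ligand differences.

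**Figure D4:**
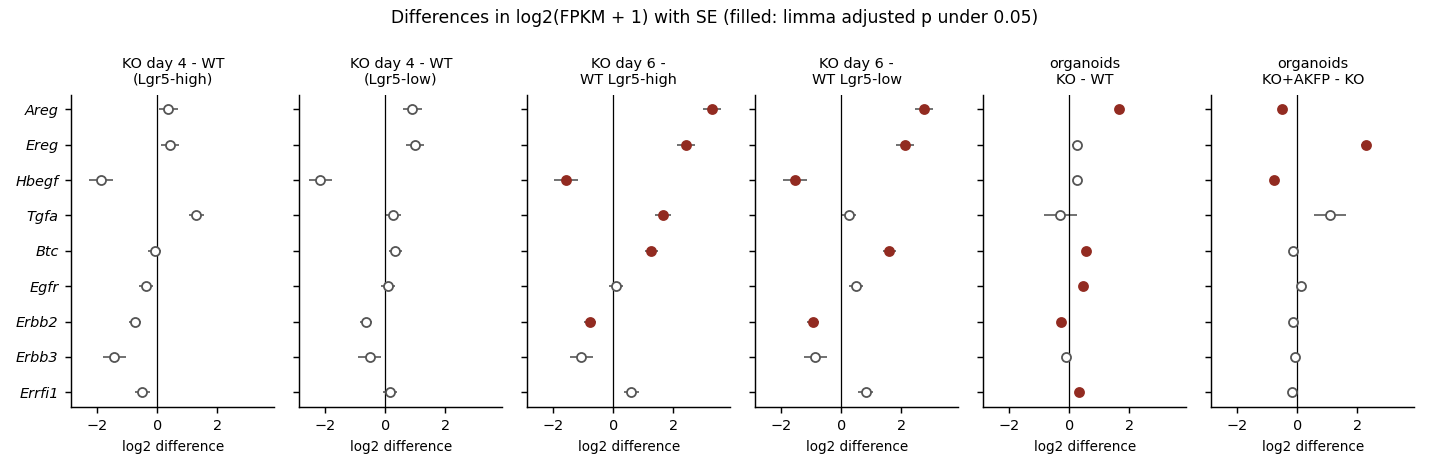
Difference in log2(FPKM + 1) (axis of values, with bars of 1 SE) of each tested gene in the comparisons of day 4, day 6 and organoids, filled where the adjusted p of limma is under 0.05. Areg, Ereg and Btc lie to the high side at day 6 and Hbegf to the low side in tissue, while in knockout organoids Hbegf lies at 0.25.

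In organoids the ERK-induced genes that passed were higher in knockouts than in controls, and most that passed were lower in AKFP than in knockouts. From control to knockout, 2 of 5 shedding genes rose, Rhbdf2 (0.32, adjusted p = 0.0353) and Rhbdf1 (0.41, adjusted p = 0.0395). Of the brakes 2 rose, Dusp4 (0.56, adjusted p = 0.00265) and Dusp6 (0.47, adjusted p = 0.0104), and of the ERK-induced genes 4 rose and none fell, among them the AP-1 subunit Fosl1 (0.68, adjusted p = 0.00341), Phlda1 (0.50, adjusted p = 0.00207) and Ier3 (0.61, adjusted p = 0.00367). Of the relay genes 1 rose, Hras (0.32, adjusted p = 0.024), and 2 fell, among them Gab1 (-0.45, adjusted p = 0.0116). The list medians were 0.32 for shedding, 0.07 for brakes, 0.26 for ERK-induced and -0.05 for relay genes, against 0.01 for all genes. In this comparison 28.2% of all tested genes passed, beside which the counts are to be read.

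From knockout to AKFP, 7 ERK-induced genes fell and 1 rose, with Fosl1 at -0.71 (adjusted p = 0.00436), Ier2 at -0.56 (adjusted p = 0.00542) and Fos at -0.39 (adjusted p = 0.0217). Of the brakes 3 rose and 4 fell, including Dusp5 (-0.64, adjusted p = 0.00215), the cytokine signalling inhibitor Socs3 (-0.78, adjusted p = 0.0024) and Dusp4 (-0.39, adjusted p = 0.0125). Of the relay genes 7 rose and none fell, among them Pik3r1 (0.65, adjusted p = 0.0214). The list medians were -0.34 for ERK-induced genes, 0.06 for brakes, 0.28 for relay and 0.11 for shedding genes, against 0.04 for all genes. Between AKFP and knockout 26.4% of all tested genes passed.

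The genes whose tissue pattern was most like each member's were ranked by Pearson's r of log2(FPKM + 1) over 12 tissue libraries, which share groups, sorts and sequencing. For Areg they were Rhof (r = 0.983, and 0.935 over the 8 organoid libraries), Capg (0.971 and 0.987) and Sqstm1 (0.970 and 0.854). Ereg was closest to Hk1 (0.978), Cers2 (0.975) and Plscr1 (0.973). Over the organoid libraries their r was -0.288, 0.860 and -0.506, but Ereg was at most 0.31 FPKM there outside AKFP. Hbegf was closest to the stress-response and immediate early genes Rhob (0.962 and 0.901) and Atf3 (0.947 and 0.933), and to Id1 (0.944 and 0.962). Btc was closest to Tead4 (0.951), Npnt (0.949) and Pvr (0.939), Erbb2 to Plin2 (0.968), Dpf2 (0.952) and Slc4a5 (0.951), and Errfi1 to Epha2 (0.932), Ifrd1 (0.920) and Dusp8 (0.907). For Tgfa the nearest, Spata2l, reached 0.823.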

How the data were processed

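RNA was measured by sequencing in 12 tissue and 8 organoid libraries. The authors deposited FPKM values per gene: the tissue headers name FPKM, the organoid header names no unit and was read as FPKM from the same gene rows, format and range. The submitters' processing notes name HISAT2 2.1.0, StringTie 1.3.3b and mm10, with no roles stated. FPKM keep no read counts, so depth is unknown; steps in low values gave a rough estimate of 14900000 to 25400000 fragments per library.

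Values were taken as log2(FPKM + 1). Genes with at least 1 FPKM in 2 libraries were kept (12899 in tissue, 12657 in organoids) and tested two-sided with limma 3.58.1 (lmFit, eBayes with a trend, R 4.3.3) in 1 fit of 10 tissue libraries and 1 of 8 organoid libraries, for 15 comparisons, with Benjamini-Hochberg adjustment and a threshold of 0.05. The fits were tested on simulated data. Day 3, with 1 library per gate, stayed outside the fit and has no test. The tissue and organoid tables were never tested against each other. The labels do not say whether a group's libraries are separate animals or cultures, so p-values measure only the spread between these libraries, which may be technical.

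Members and gene lists were chosen with earlier results of these data known. Every member is named; of a pathway list, up to 3 called genes of smallest adjusted p per comparison are named, with those called again elsewhere. Some relay genes that the rule would name are not reported here. Gene names follow GENCODE M21.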

Additional observations from a re-analysis of the deposited data

Results flagged for a closer look

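Hbegf differed by -1.88 in the high gate and by -2.15 in the low gate at day 4, and by 0.247 in knockout organoids, with every library on its own side of the control mean. Egfr differed by -0.388 in the day 4 high gate and by 0.444 in knockout organoids, and Errfi1 by -0.496 and 0.327, in the same opposite manner. These differences between tissue and organoids were not tested, because the tables were made separately.

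Within day 4, Egfr lay below the control mean in both high-gate libraries and above it in both low-gate libraries. The difference of the knockout effects between gates was -0.491 (limma, adjusted p = 0.963).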

How the results depend on the processing

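Of the 37 called differences of single members, 202 of 222 values under another pseudocount, filter, scaling, fit or block were still called, and 270 of 322 with 1 library left out; the 42 changes of sign all concerned differences that were not called. Calls of Ereg, which the filter favoured, are among the 37 and in the counts of members below at day 6 and in AKFP. The precision of each value is limited by 2 libraries per group and, for Ereg and Egf, by levels below 1 FPKM.

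The number of members called moved as follows. At day 4 in the high gate it went from 0 to 1 (Tgfa) with a pseudocount of 0.1 or median-of-ratios scaling. Between control gates it went from 1 to 0 with no filter or equal FPKM sums. Between day 6 and day 4 high it went from 4 to 1 with no filter or equal sums and to 0 when only those groups were fitted. Between AKFP and AKF median-of-ratios scaling gave 5 in place of 3. With the replicate number as a block, a pairing the labels do not state, the counts were 2 (Hbegf, Tgfa) at day 4 high, 1 (Hbegf) at day 4 low and 5 for AKFP against AKF (adding Btc and Errfi1); the block moved no other count by over 1.5 times. The deviations of same-numbered libraries correlated at 0.0243 to 0.52 in tissue and -0.0392 to 0.0911 in organoids. The cause was not tested.

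Signs changed with equal sums for Egfr at day 6 against the control high gate (-0.22), Erbb3 between AKFP and knockout (0.066), and Tgfa (0.00143) and Egfr (0.060) between AKFP and AKF. They changed with median-of-ratios scaling for Hbegf between control gates (-0.0544), Erbb2 at day 6 against day 4 high (0.15) and Tgfa at day 6 against day 4 low (0.0685). Equal sums moved the median of all genes by over 0.1 in 7 comparisons: at day 6 to -0.46, -0.29, -0.32 and -0.28 against the control high, control low, day 4 high and day 4 low gates (from -0.16, -0.08, -0.14 and -0.09), at day 4 high to -0.13 (from -0.02), and for AKFP against knockout and AKF to 0.15 each (from 0.04 each); Erbb2 and Hbegf at day 6 are to be read against these shifts. Median-of-ratios scaling moved it to -0.02 and -0.01 at day 6 against control high and day 4 high.

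With 1 library left out, the members called numbered 0 to 1 between control gates, 0 to 1 at day 4 in each gate, 0 to 2 between the day 4 gates, 3 to 7 and 3 to 6 at day 6 against the control high and low gates, 1 to 5 and 0 to 1 against the day 4 high and low gates, 2 to 5 in knockout organoids and 1 to 4 between AKFP and knockout. The number of all genes called also moved in each of these comparisons, so the member counts are not to be read alone. Differences that changed sign ran over these ranges. Between control gates they were -0.075 to 0.165 (Hbegf) and -0.039 to 0.46 (Errfi1). At day 4 against control they were -0.36 to 0.20 (Btc, high gate) and -0.10 to 0.40 (Errfi1, low gate). Between the day 4 gates they were -0.22 to 0.85 (Hbegf), -0.36 to 0.19 (Btc) and -0.42 to 0.21 (Egfr), and for the difference between gates -0.27 to 0.80 (Hbegf) and -0.26 to 0.061 (Erbb2). At day 6 against day 4 high they were -0.16 to 0.77 (Hbegf), -0.14 to 0.11 (Erbb2) and -0.22 to 0.97 (Erbb3). Against day 4 low they were -0.23 to 0.21 (Tgfa) and -0.76 to 0.062 (Erbb3). In organoids they were -1.21 to 0.62 for Tgfa between knockout and control. Between AKF and knockout they were -0.25 to 0.026 (Ereg), -0.10 to 0.062 (Hbegf), -0.012 to 0.13 (Erbb2) and -0.025 to 0.20 (Erbb3). Between AKFP and knockout Erbb3 ran from -0.16 to 0.040, and between AKFP and AKF Egfr from -0.12 to 0.024. Against controls, Tgfa ran from -0.015 to 1.82 and Erbb3 from -0.15 to 0.080 in AKF, and Tgfa from -0.12 to 1.71 in AKFP. Ereg has no organoid value without an AKFP library, since it then fails the filter.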
